A study of Homo sapiens with 6 samples.

Results

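The genes described here encode splicing factors and proteins of the spliceosome. They were chosen by a rule that uses only names, with earlier results of these data known. Symbols in the array annotation had to begin with SRSF, HNRNP, SNRP, SF3A or SF3B with a digit, PRPF with a digit, or U2AF. Pseudogenes were left out. This gave 71 of the 20037 annotated genes, and 64 of them were measured above background and tested. The 71 genes are 12 SNRP genes, 3 U2AF genes, 9 SF3 genes, 11 PRPF genes, 12 SR protein genes and 24 hnRNP genes.

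HCT116 is a colorectal carcinoma cell line. RNA was compared between its PTTG1+/+ form, the control, and a PTTG1-/- derivative that lacks both copies of PTTG1, with 3 samples of each line on 6 one-colour Illumina arrays. No treatment is named for either line, and both share the HCT116 background. The sources do not say whether the PTTG1-/- line was 1 clone or whether the 3 samples of a line were separate cultures, and each p-value therefore reflects the spread between 3 samples that may differ for technical reasons alone. With 1 line of each genotype, the genotype and the line cannot be told apart. PTTG1, also called securin, holds back the protease that separates sister chromatids, and the microarray comparison was made to find genes that depend on it.

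Splicing removes introns from pre-mRNA. The U1 and U2 particles mark the start of the intron and its branch point, U2AF guides U2 to the end of the intron, and the tri-snRNP of U4, U6 and U5 then joins so that the catalytic core can form. SR proteins mostly bind exons and favour their inclusion, and hnRNP proteins coat nascent RNA and often oppose it, so that the balance of both classes shapes alternative splicing.

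All levels are log2 intensities after background correction and quantile normalization, and all differences are PTTG1-/- minus PTTG1+/+. The first PTTG1 probe read 10.77, 10.76 and 10.84 in PTTG1+/+ cells and 5.04, 4.83 and 5.02 in PTTG1-/- cells, where it was above background on 0 of 3. The second PTTG1 probe read 11.98, 12.02 and 12.09 against 11.31, 11.19 and 10.88. Both probes were lower on every PTTG1-/- array, and only the first fell to background. Where the probes lie relative to the deletion is not given in the sources used here. Between 35.7% and 37.3% of 47310 probes lay above background on an array. Arrays of 1 line correlated at 0.993 to 0.996 against 0.986 to 0.988 between lines (Pearson's r over the 10642 genes tested, a description). Of the markers of colon epithelium 7 of 11 were above background on all 6 arrays and CDX1, VIL1 and LGALS4 on none. EPCAM, CDH1 and CLDN7 were lower in PTTG1-/- cells. KRT8, KRT18, KRT19 and CDX2 did not pass, with differences of -0.17, 0.06, 0.24 and 0.03. Of the other markers above background on all 6 arrays there were 1 of 8 for fibroblasts (COL1A1), 1 of 6 for blood (HBA1, which was higher in PTTG1-/- cells) and 0 of 4 for endothelium. The part of these markers in the results below was not tested.

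Splicing factor mRNA was modestly lower in PTTG1-/- cells for a minority of the genes. Of the 64 tested members 9 were lower, which is 14.1%, 1 was higher, which is 1.56%, and 54 did not pass limma's test at an adjusted p under 0.05. Among all 10642 genes tested 7.79% were lower and 9.58% were higher, and the gap between members and all genes was not tested. In bulk RNA, fewer cells of a kind and less RNA per cell cannot be told apart. The 9 lower genes were SNRPD1, PRPF38B, SRSF1, SRSF6, HNRNPLL, HNRNPH2, HNRNPCL3, HNRNPDL and HNRNPM, and the higher gene was PRPF4. The changes were small: 0 members reached 1.5-fold, and the largest was 1.35-fold, for HNRNPLL.

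The signs leaned the same way over the whole set. The log2 difference was negative for 41 members and positive for 23, with a median of -0.08 against 0.00 over all genes tested. All 3 PTTG1-/- arrays lay below all 3 PTTG1+/+ arrays for 19 members (29.7%) and above them for 2 (3.12%), beside 16.7% and 19.5% of all genes. When each member was set to its own mean over the 6 arrays, the median member stood at 0.05, 0.03 and 0.04 on the PTTG1+/+ arrays and at -0.04, -0.07 and -0.03 on the PTTG1-/- arrays. These medians did not overlap between the lines, at a scale of less than 0.1 log2.

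The number of calls rested on single arrays and on the normalization, while the median did not. Without PTTG1+/+ replicate 1 the adjusted test called 0 members in limma, beside 4.13% of genes lower and 5.51% higher. At an unadjusted p under 0.05 that fit gave 14 members lower (21.9%) and 2 higher (3.12%), beside 12.7% and 13.9% of genes. Without PTTG1-/- replicate 3 limma called 11 members lower and 3 higher, beside 9.60% and 10.9% of genes. Without PTTG1+/+ replicate 2 it called 2 of 64 lower beside 4.13% of genes, and without PTTG1-/- replicate 2 it called 4 beside 4.49%. Without PTTG1+/+ replicate 3 or PTTG1-/- replicate 1 it called 5 lower in each case, beside 5.16% and 5.29% of genes. None of these fits left a higher call, beside 5.40% to 6.62% of genes. With arrays scaled to the same median in place of quantile normalization, 1 member was lower (HNRNPCL3) and 0 were higher, beside 4.09% of genes lower and 6.62% higher. There, 10 members were lower (15.6%) and 3 higher (4.69%) at an unadjusted p under 0.05, beside 10.6% and 14.9% of genes. The median over members stayed between -0.08 and -0.06 under every alternative tried.

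**Figure D1:**
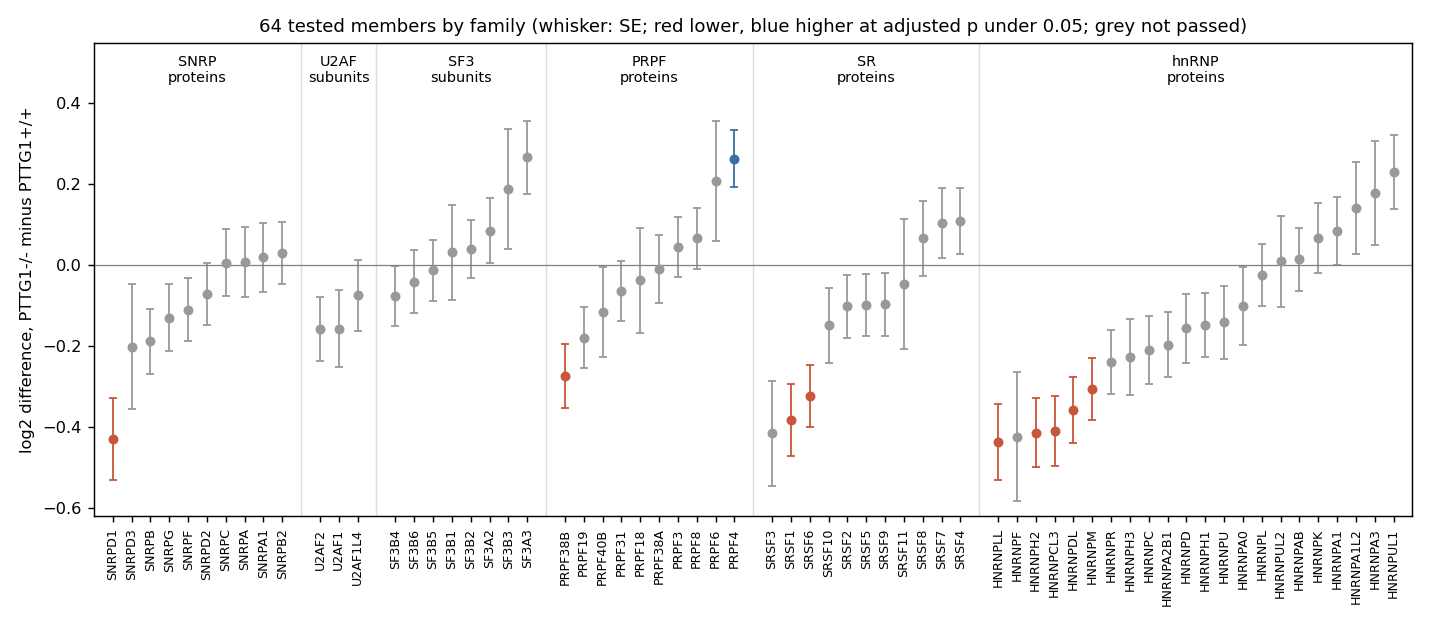
Log2 difference, PTTG1-/- minus PTTG1+/+, of the 64 tested members (points, whiskers are the standard error, 3 arrays a line) grouped by family on the horizontal axis. The 9 red points are the lower members, the blue point is PRPF4, and most hnRNP and SR points lie below 0 while the SF3 points lie on both sides of it.

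The promoters of 4 lower members and of the 1 higher member are shown because transcription of these genes starts there, with the motifs searched in capitals. They were chosen after the values were seen. For the SR, hnRNP and PRPF genes the full promoter is that of the called member with the smallest p in limma. HNRNPDL and HNRNPM are shown as windows because they are lower members that hold the E-box CACGTG. The sequences are those of RefSeq on GRCh38.p14, 5′ to 3′ in the direction of the gene, and cover 250 bases before to 50 bases after the annotated start, or 60 bases around a match. Of the 71 members 64 were matched to a promoter.
HNRNPH2 promoter, chrX:101407972-101408271, plus strand: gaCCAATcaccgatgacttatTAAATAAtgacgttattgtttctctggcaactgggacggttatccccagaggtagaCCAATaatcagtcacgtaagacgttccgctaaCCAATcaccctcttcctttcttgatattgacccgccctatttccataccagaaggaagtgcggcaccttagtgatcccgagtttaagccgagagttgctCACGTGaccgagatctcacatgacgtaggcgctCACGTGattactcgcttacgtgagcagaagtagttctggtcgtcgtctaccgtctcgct
HNRNPDL window, chr4:82430349-82430408, minus strand: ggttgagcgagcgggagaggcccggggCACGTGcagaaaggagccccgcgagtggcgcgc
HNRNPM window, chr19:8444906-8444965, plus strand: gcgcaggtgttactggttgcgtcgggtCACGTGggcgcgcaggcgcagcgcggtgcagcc
SRSF1 promoter, chr17:58007197-58007496, minus strand: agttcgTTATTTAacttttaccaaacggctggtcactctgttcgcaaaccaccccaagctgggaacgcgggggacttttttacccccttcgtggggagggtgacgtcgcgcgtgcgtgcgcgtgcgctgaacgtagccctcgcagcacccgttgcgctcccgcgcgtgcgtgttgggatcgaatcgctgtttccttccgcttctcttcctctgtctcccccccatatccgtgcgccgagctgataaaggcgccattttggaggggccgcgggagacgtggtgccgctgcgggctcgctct
PRPF4 promoter, chr9:113275408-113275707, plus strand: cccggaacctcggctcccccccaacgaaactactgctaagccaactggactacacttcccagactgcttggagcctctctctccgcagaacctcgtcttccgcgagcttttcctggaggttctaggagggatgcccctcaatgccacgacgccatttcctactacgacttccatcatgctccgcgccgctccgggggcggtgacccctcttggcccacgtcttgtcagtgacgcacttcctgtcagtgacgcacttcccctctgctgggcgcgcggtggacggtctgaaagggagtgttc
In HNRNPH2 the capitals mark 3 CCAAT boxes, at 248, 173 and 141 bases before the start, TAAATAA at 229 bases, and 2 E-boxes, at 42 and 9 bases before it. In HNRNPDL and HNRNPM they mark the E-box, at 156 and 42 bases before the start. In SRSF1 they mark TTATTTA, the reverse complement of TAAATAA, at 244 bases before the start. The promoter of PRPF4 held 0 matches to the motifs searched.

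The E-box CACGTG, which reads the same on both strands, lay in the promoter of 8 of 64 members (12.5%), beside 10.4% of the promoters of genes tested and 7.43% of all 27305 promoters of that length. It lay in 3 of the 7 lower members with a promoter (HNRNPH2, HNRNPDL and HNRNPM) and in 5 of the 50 members that did not pass. The ETS motif CCGGAAG, or CTTCCGG on the other strand, lay in 21 members (32.8%), beside 19.6% of genes tested and 10.7% of all promoters. Among the lower members only HNRNPLL held it. CCAAT or its complement ATTGG lay in 28 members (43.8%) beside 37.4% of genes tested, and in HNRNPLL, HNRNPH2 and PRPF38B among the lower ones. The study examined 2 candidate FoxM1 sites in the PTTG1 promoter. The first, TATTTAT or its complement ATAAATA, lay in 2 members (3.12%) and 0 of the 7 lower ones, beside 2.36% of genes tested. The second, TAAATAA or TTATTTA, lay in 3 members (4.69%), 2 of them lower (HNRNPH2 and SRSF1), beside 2.40% of genes tested. Either was found in 4 members (6.25%), beside 3.86% of genes tested and 7.90% of all promoters. TTTGAA, a cell cycle element (or TTCAAA), lay in 5 members (7.81%), SRSF6 among them, beside 9.86% of genes tested. GCATGCG, the NRF1 core (or CGCATGC), lay in 4 (6.25%), beside 6.60%. The TATA box TATAAA (or TTTATA) lay in 6 (9.38%), beside 5.69%. None of the lower members held the NRF1 core or the TATA box. TATTTAT can lie on the same bases as TTTATA or TTATTTA. The median GC content was 61.8% in members and 65.3% in genes tested. A match describes the letters and is not a measured binding site.

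Among the SNRP genes, which encode the Sm ring and the proteins of U1 and U2, 1 of 10 tested was lower and the median difference was -0.09. SNRPD1 encodes SmD1, 1 of the ring proteins common to the U1, U2, U4 and U5 particles. SNRPD1 read 8.05, 7.83 and 8.06 in PTTG1+/+ cells and 7.41, 7.55 and 7.70 in PTTG1-/- cells. The lines did not overlap, although PTTG1+/+ replicate 2 lay within 0.14 of the nearest PTTG1-/- array. The difference was -0.43 ± 0.10 (SE, n = 3 and 3; 1.35-fold lower; adjusted p = 0.0196 in limma). Leaving out 1 array at a time gave adjusted p from 0.0147 to 0.0730, above 0.05 on leaving out PTTG1+/+ replicate 1 or 3, PTTG1-/- replicate 1 or PTTG1-/- replicate 2, and all 21 alternatives gave 0.00582 to 0.111.

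The other ring proteins did not pass. SNRPD2, the ring protein SmD2, read 13.89, 13.85 and 13.97 against 13.83, 13.89 and 13.78, with overlap and a difference of -0.07. SNRPD3 differed by -0.20, SNRPB by -0.19, SNRPG by -0.13 and SNRPF by -0.11, and of these 4 the lines did not overlap for SNRPB and SNRPF. SNRPB stood at 12.25, 12.33 and 12.43 against 12.12, 12.13 and 12.20 (adjusted p = 0.138). The U1 proteins SNRPA and SNRPC and the U2 proteins SNRPA1 and SNRPB2 lay between 0.01 and 0.03, all with overlapping arrays. Second kept probes of SNRPC and SNRPB2 had the opposite sign, at -0.24 and -0.03, and did not pass.

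U2AF recognises the polypyrimidine tract and the end of the intron as a dimer of a large and a small subunit. None of its 3 genes passed limma's adjusted test, 0 passed at an unadjusted p under 0.05, and 0 passed the methods' t-test, the unpaired test that the study names. U2AF2, the large subunit, read 10.80, 10.95 and 10.92 against 10.73, 10.79 and 10.68, so that the arrays did not overlap, with a difference of -0.16 ± 0.08. U2AF1, the small subunit, differed by -0.16 and its paralog U2AF1L4 by -0.07, both with overlap on the probe used. A second U2AF1 probe differed by -0.34 without overlap and did not pass (adjusted p = 0.132 in limma over all probes). The second probe of U2AF1L4 differed by 0.02 with overlap. A second U2AF2 probe pointed the other way, at 5.68, 6.05 and 5.25 against 6.05, 6.14 and 6.02, a difference of 0.41 that did not pass (adjusted p = 0.153 over all probes) and whose PTTG1+/+ arrays were spread over 0.80.

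The SF3A and SF3B subunits belong to the U2 particle and clamp it on the branch point. None of the 8 tested passed the adjusted test in limma or in the methods' t-test, with 0 lower and 1 higher at an unadjusted p under 0.05, and the median was 0.04. That 1 was SF3A3, named here after its value was seen. SF3A3 read 10.88, 10.94 and 10.96 in PTTG1+/+ cells and 11.26, 11.30 and 11.03 in PTTG1-/- cells. The arrays did not overlap, and PTTG1-/- replicate 3 lay closest to the control. The difference was 0.27 ± 0.09 (adjusted p = 0.0738, and 0.0168 to 0.218 over 21 alternatives). The smallest value came without PTTG1-/- replicate 3.

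SF3B1, the subunit that most often carries mutations in myelodysplasia, differed by 0.03, with 10.45, 10.14 and 10.41 against 10.24, 10.28 and 10.57. SF3B2, SF3B3, SF3B4, SF3B5 and SF3A2 lay between -0.08 and 0.19, all with overlap. SF3B6, a small subunit that touches the branch adenosine, was read by 2 probes that differed. The probe used read 11.31, 11.32 and 11.34 against 11.38, 11.19 and 11.28, with overlap and a difference of -0.04. The second probe read 9.63, 9.60 and 9.62 against 9.14, 9.22 and 9.23. Its arrays were apart by more than their spread, with a difference of -0.43 (adjusted p = 0.00833 over all kept probes). Averaging both probes gave an adjusted p of 0.0442 for SF3B6, and the other alternatives gave up to 0.977.

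PRPF genes encode proteins named for yeast pre-mRNA processing mutants, several of them in the tri-snRNP. Of 10 tested 1 was higher and 1 lower, with a median of -0.02. PRPF4, a protein of the U4/U6 particle that partners PRPF3, read 10.57, 10.56 and 10.60 in PTTG1+/+ cells and 10.82, 10.82 and 10.87 in PTTG1-/- cells. The arrays spanned 0.03 in one line and 0.05 in the other, and the lines did not overlap. The difference was 0.26 ± 0.07 (1.20-fold higher; adjusted p = 0.0319 in limma). Without 1 array at a time the adjusted p was 0.0429 to 0.116, below 0.05 only without PTTG1-/- replicate 3, and it was 0.00630 to 0.156 over 21 alternatives. The replicate block also ended this call.

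PRPF38B, whose protein is related to the tri-snRNP component PRPF38A, read 6.67, 6.67 and 6.82 against 6.39, 6.49 and 6.46. All PTTG1-/- arrays lay below all PTTG1+/+ arrays, by 0.18 or more. The difference was -0.27 ± 0.08 (1.21-fold lower; adjusted p = 0.0430), and it missed 0.05 without each of the 6 arrays in turn (0.0527 to 0.138) and in 14 of 21 alternatives (0.0335 to 0.189 in all). Its paralog PRPF38A differed by -0.01. PRPF8, the scaffold of the catalytic core, read 12.08, 11.99 and 11.95 against 12.11, 12.07 and 12.05, with overlap and a difference of 0.07. PRPF19, the ubiquitin ligase of the complex that carries its name, stood lower on all PTTG1-/- arrays without passing (-0.18, adjusted p = 0.138). PRPF3, PRPF6, PRPF18, PRPF31 and PRPF40B lay between -0.12 and 0.21 with overlapping arrays.

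Of the 11 SR protein genes tested 2 were lower (18.2%) and 0 higher, beside 7.79% and 9.58% of all genes, and the median was -0.10. At an unadjusted p under 0.05 limma gave 3 lower and 0 higher, beside 14.7% and 16.9%. The methods' t-test called 1 lower and 0 higher after adjustment, beside 3.88% and 4.91%. SRSF1, the founding SR protein and a proto-oncogene product, read 11.32, 11.26 and 11.17 in PTTG1+/+ cells and 10.73, 10.94 and 10.94 in PTTG1-/- cells. The lines did not overlap, and PTTG1-/- replicate 1 was the lowest. The difference was -0.38 ± 0.09 (1.30-fold lower; adjusted p = 0.0182), with 0.0207 to 0.0689 when 1 array was left out, above 0.05 without PTTG1+/+ replicate 1 or 2 or PTTG1-/- replicate 1, and 0.00215 to 0.0891 over 21 alternatives.

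SRSF6, an SR protein that binds exonic enhancers, read 12.43, 12.32 and 12.40 against 12.12, 11.99 and 12.07. The arrays of each line held within 0.14 and did not overlap. The difference was -0.32 ± 0.08 (1.25-fold lower; adjusted p = 0.0207), with 0.0291 to 0.0775 when 1 array was left out, above 0.05 without PTTG1+/+ replicate 1 or 3 or PTTG1-/- replicate 2, and 0.00215 to 0.111 over 21 alternatives. SRSF6 also passed the methods' t-test after adjustment.

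SRSF3, the smallest SR protein, is named after its value was seen, since its difference was larger than that of SRSF1. It read 9.17, 9.20 and 9.05 against 8.45, 8.72 and 9.002. The arrays did not overlap, but PTTG1-/- replicate 3 lay within 0.05 of the control. The difference was -0.42 ± 0.13 (adjusted p = 0.0574, and 0.0117 to 0.215 over 21 alternatives, the smallest without PTTG1-/- replicate 3). SRSF9, which can repress as well as activate exons, read 12.32, 12.42 and 12.50 against 12.34, 12.28 and 12.32, with overlap and a difference of -0.10. SRSF2, SRSF4, SRSF5, SRSF7, SRSF8 and SRSF11 lay between -0.10 and 0.11, all with overlap.

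SRSF10, an SR protein that represses splicing when dephosphorylated, had 2 kept probes. The probe used read 6.54, 6.63 and 6.38 against 6.35, 6.47 and 6.28, a difference of -0.15 with overlap. The other read 6.44, 6.37 and 6.13 against 5.69, 5.67 and 6.07. It was lower by itself, by -0.50 (adjusted p = 0.0355 over all probes), with PTTG1-/- replicate 3 nearest to the control. The mean of the probes of SRSF10 gave an adjusted p of 0.0381, and the other alternatives gave up to 0.637.

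The hnRNP genes held most of the lower calls, 5 of 22 tested (22.7%), with 0 higher and a median of -0.15. Among all genes 7.79% were lower and 9.58% higher. At an unadjusted p under 0.05 limma gave 10 lower and 1 higher, beside 14.7% and 16.9% of all genes. The methods' t-test called 1 lower and 0 higher after adjustment, beside 3.88% and 4.91%. The PTTG1-/- arrays lay below all PTTG1+/+ arrays for 10 of the 22 genes (45.5%) and above them for 0, beside 16.7% and 19.5%. This family was not tested against the other families.

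HNRNPLL, a regulator known from alternative splicing of CD45 in T cells, read 7.54, 7.45 and 7.30 in PTTG1+/+ cells and 6.87, 7.04 and 7.08 in PTTG1-/- cells. The lines did not overlap, with PTTG1+/+ replicate 3 and PTTG1-/- replicate 3 closest. The difference was -0.44 ± 0.09 (1.35-fold lower; adjusted p = 0.0140), with 0.0167 to 0.0564 when 1 array was left out, above 0.05 without PTTG1+/+ replicate 1 or 2, and 0.00572 to 0.0773 over 21 alternatives. HNRNPL, its closest relative, read 11.60, 11.57 and 11.53 against 11.63, 11.54 and 11.45. Its arrays overlapped, with a difference of -0.02.

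HNRNPH2, which binds runs of guanines, read 8.49, 8.48 and 8.27 against 7.94, 8.01 and 8.05. Every PTTG1-/- array lay at least 0.22 below every PTTG1+/+ array. The difference was -0.41 ± 0.09 (1.33-fold lower; adjusted p = 0.0121), with 0.0127 to 0.0552 when 1 array was left out, above 0.05 without PTTG1+/+ replicate 1 or 2, and 0.00292 to 0.0728 over 21 alternatives. A second probe for HNRNPH2 differed by -0.13, also without overlap, and did not pass by itself. Its paralogs HNRNPH1, HNRNPH3 and HNRNPF, which share the guanine-binding domain, did not pass. HNRNPH1 differed by -0.15 and HNRNPH3 by -0.23, both without overlap of arrays. HNRNPF read 6.75, 6.75 and 6.79 against 6.23, 6.03 and 6.76, so that PTTG1-/- replicate 3 lay among the control arrays, and the difference was -0.42 ± 0.16 (adjusted p = 0.101). Without PTTG1-/- replicate 3 the HNRNPF difference was -0.63 (adjusted p = 0.00386), and its alternatives gave up to 0.308.

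HNRNPCL3 belongs to a cluster of near-identical copies related to HNRNPC, so the transcript behind its probe is uncertain. It read 6.63, 6.60 and 6.505 against 6.30, 6.07 and 6.13. The arrays were 0.20 apart at the closest. The difference was -0.41 ± 0.09 (1.33-fold lower; adjusted p = 0.0129), with 0.0122 to 0.0526 when 1 array was left out, above 0.05 without PTTG1+/+ replicate 1 or 2 or PTTG1-/- replicate 2, and 0.00962 to 0.0609 over 21 alternatives. HNRNPC itself, which packages nascent RNA and binds uridine tracts, read 9.21, 9.43 and 9.23 against 9.03, 9.11 and 9.09, without overlap. Its difference of -0.21 did not pass (adjusted p = 0.123). The copies HNRNPCL1 and HNRNPCL2 were above background on 0 arrays.

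HNRNPDL, a relative of HNRNPD that binds AU-rich elements, read 9.75, 9.75 and 9.57 against 9.38, 9.31 and 9.29 on the probe used. The lines did not overlap, at a closest distance of 0.18. The difference was -0.36 ± 0.08 (1.28-fold lower; adjusted p = 0.0178), with 0.0207 to 0.0788 when 1 array was left out, above 0.05 without PTTG1+/+ replicate 1 or 2 or PTTG1-/- replicate 2, and 0.00351 to 0.183 over 21 alternatives. That probe is annotated to a non-coding transcript record of HNRNPDL. The other kept probe read 7.86, 7.96 and 7.84 against 7.91, 7.88 and 8.003, with overlap and a difference of 0.04, and the mean of both probes did not pass. HNRNPD differed by -0.16 with overlap.

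HNRNPM, which binds GU-rich RNA, read 12.48, 12.40 and 12.39 against 12.06, 12.20 and 12.09 on the probe used. The arrays did not overlap. The difference was -0.31 ± 0.08 (1.24-fold lower; adjusted p = 0.0250), with 0.0390 to 0.0865 when 1 array was left out, above 0.05 without PTTG1+/+ replicate 1, 2 or 3 or PTTG1-/- replicate 1, and 0.00292 to 0.118 over 21 alternatives. All 4 kept probes of HNRNPM stood below the control without overlap, with differences of -0.35 to -0.23, and 2 of them passed by themselves. HNRNPM also passed the methods' t-test after adjustment but not the test with the replicate block.

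Among the core hnRNP proteins, HNRNPA1 differed by 0.08 on the probe used and by -0.10 on its other kept probe, and HNRNPA3 differed by 0.18, with overlap. HNRNPA2B1, their partner in the A/B group, read 12.82, 12.71 and 12.63 against 12.49, 12.49 and 12.59, without overlap and without passing (-0.20, adjusted p = 0.127). All 4 of its kept probes were negative. HNRNPAB, an RNA-binding protein of the A/B type, read 12.77, 12.81 and 12.81 against 12.83, 12.71 and 12.89, with overlap and a difference of 0.01. Its other kept probes differed by -0.05 with overlap and by -0.13 without, and did not pass. HNRNPR stood below the control on all PTTG1-/- arrays (-0.24, adjusted p = 0.0692) without passing, with 3 kept probes all negative. HNRNPA0, HNRNPA1L2, HNRNPK, HNRNPU, HNRNPUL1 and HNRNPUL2 lay between -0.14 and 0.23 on the probes used, all with overlap. The other kept probes of HNRNPK differed by -0.21 without overlap and by -0.03 and -0.01 with overlap, and did not pass.

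**Figure D2:**
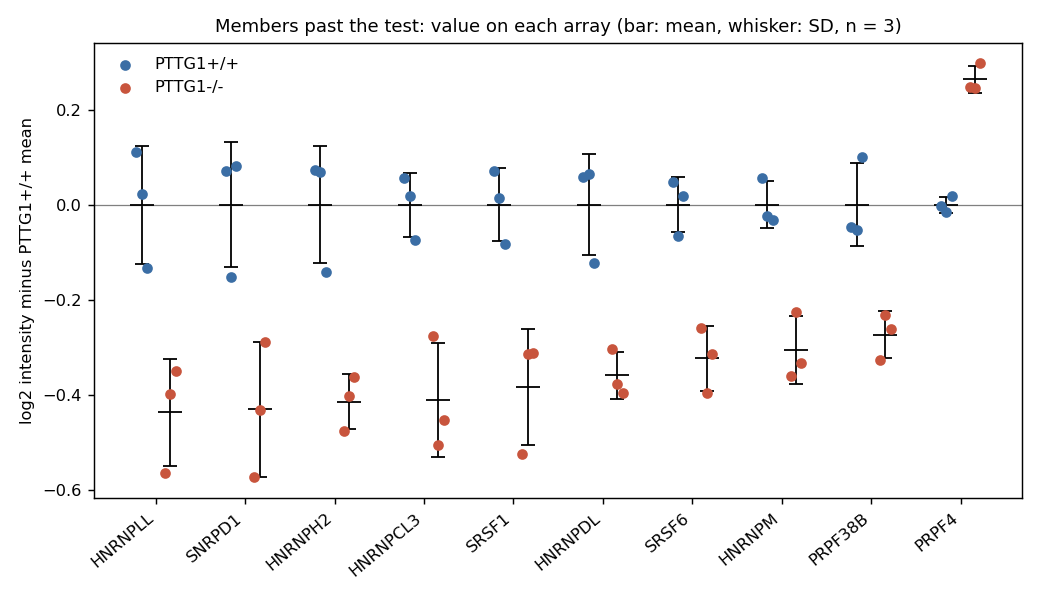
Level on each array of the 10 members past the test, as log2 intensity minus that gene's PTTG1+/+ mean (points are arrays, bars are means, whiskers are SD, n = 3 a line). For all 10 genes the red PTTG1-/- points and the blue PTTG1+/+ points do not overlap, with PRPF4 the 1 gene above the control.

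Each of these 10 genes gave an exact permutation p of 0.1 over the 6 arrays (two-sided), the smallest that 3 against 3 can give.

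Several members were read by more than 1 probe, which shows how far a gene's call depends on the probe used. Why probes of 1 gene differed was not tested. The 71 members had 121 probes, of which 99 were kept. With every probe tested by itself, limma called 11 member probes lower and 0 higher. Beside these stand 5.88% and 6.88% of all 17357 kept probes. At an unadjusted p under 0.05 there were 28 lower (28.3%) and 4 higher (4.04%), beside 14.7% and 16.9% of all genes tested. The difference was negative for 70 of the 99, beside 49.8% of all genes tested. Shares of all kept probes were not counted for the unadjusted p, the signs or the fits below. Of 26 members with at least 2 kept probes 14 had only negative differences, 0 had only positive ones and 12 were mixed. Probes of 1 gene share its samples and often its transcripts, so they are not independent. Without 1 array at a time 1 to 14 member probes were lower. There was 1 without PTTG1+/+ replicate 1 or PTTG1-/- replicate 2, and 2 without PTTG1+/+ replicate 2 or PTTG1-/- replicate 1. Without PTTG1+/+ replicate 3 there were 7. In the fits that leave out 1 array, 4.13% to 9.60% of all genes tested were lower.

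**Figure D3:**
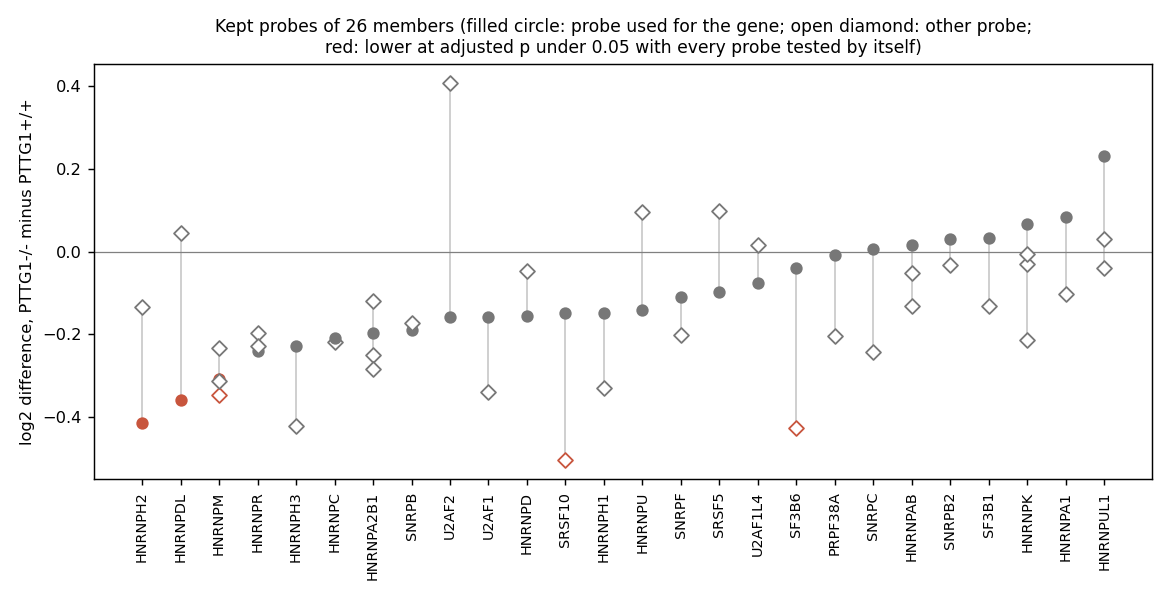
Log2 difference, PTTG1-/- minus PTTG1+/+, of each kept probe of the 26 members with several (filled circle for the probe used for the gene, open diamond for the others, red for lower by itself). The open red diamonds of SRSF10 and SF3B6 lie far below their used probes, and U2AF2 has an open probe at 0.41 above a used probe at -0.16.

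Member probes were mostly bright, since 45 of the 64 lay in the brightest of 3 equal groups of the genes tested. In that group 4 of 45 members were lower and 1 higher, beside 7.16% of its genes lower and 9.11% higher. In the middle group 3 of 9 members were lower beside 9.92%, and in the dim group 2 of 10 beside 6.29%. In those groups 0 members were higher, where 11.5% and 8.17% of genes were.

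There were 7 members under the filter. HNRNPCL1, HNRNPCL2, PRPF39, SF3A1, SNRPE and SRSF12 were above background on 0 arrays, and SNRPN, the neuronal form of SNRPB, on at most 2. SF3A1 and SNRPE encode core components of U2 and of the Sm ring, so for these the probes give only a bound and say nothing of the genes' levels.

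The rest of the splicing machinery was described with 7 lists that hold 205 further genes, 176 of which were tested. Of these 15 were lower (8.52%) and 1 was higher (0.568%), beside the 7.79% and 9.58% of all genes, with a median of -0.05. Without PTTG1+/+ replicate 1 or 2 it was 5 lower in each case, beside 4.13% of all genes in both fits. Without PTTG1-/- replicate 2 it was 6 beside 4.49%, and without PTTG1+/+ replicate 3 it was 9 beside 5.16%. In these fits the listed genes' share of lower calls was not larger than that of all genes. The higher count was 0 to 3 over the 6 fits that leave out 1 array, beside 5.40% to 10.9% of genes. With quantile normalization and all 6 arrays, the share of lower genes was near that of all genes, against 14.1% of members. The share of higher genes was below that of all genes. The members' larger share of lower genes did not hold in every setting. With median scaling 1 of 64 members was lower beside 4.09% of genes. In the bright group 4 of 45 members were lower beside 7.16% of its genes, so the members' share was only slightly larger there. These gaps were not tested.

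Other splicing regulators are proteins that bind pre-mRNA outside the SR and hnRNP names. They held 6 lower of 42 (14.3%) and 0 higher, with a median of -0.08, beside 7.79% and 9.58% of all genes. At an unadjusted p under 0.05 limma gave 10 lower and 1 higher (23.8% and 2.38%), beside 14.7% and 16.9%. The methods' t-test called 4 lower and 1 higher after adjustment, beside 3.88% and 4.91%. RAVER1, a cofactor of the polypyrimidine tract binding protein, read 8.26, 8.09 and 8.16 against 7.49, 7.53 and 7.31. It was 0.56 lower at the closest, with a difference of -0.73 ± 0.09 (adjusted p = 0.000875), and it passed in all 21 alternatives. KHDRBS3, of the Sam68 family, read 8.55, 8.66 and 8.60 against 7.92, 7.89 and 8.10. It also passed in all 21, at -0.63 ± 0.08 (adjusted p = 0.00142), and both of its kept probes were lower by themselves. ESRP1, the epithelial splicing regulator, read 6.69, 6.63 and 6.38 against 5.81, 5.81 and 6.14, without overlap, at -0.65 ± 0.12 (adjusted p = 0.00683), and it missed only in the methods' t-test. TRA2B, an SR-like activator, read 10.59, 10.47 and 10.44 against 10.18, 10.15 and 10.16. Its difference was -0.33 ± 0.08 (adjusted p = 0.0171, and 0.0263 to 0.0653 when 1 array was left out, above 0.05 without PTTG1+/+ replicate 1 or 2 or PTTG1-/- replicate 2). SFPQ (-0.46) and TAF15 (-0.26) were the remaining 2 lower regulators, named after their values were seen. TAF15 was above 0.05 on leaving out any of the 6 arrays (up to 0.147) and SFPQ on leaving out any PTTG1+/+ array or PTTG1-/- replicate 2 (up to 0.0600).

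Among the kinases, phosphatases and importers of SR proteins 3 of 15 were lower (20%) and 0 higher, with a median of -0.18. Among all genes 7.79% were lower and 9.58% higher. At an unadjusted p under 0.05 limma gave 6 lower and 1 higher, beside 14.7% and 16.9%. The methods' t-test called 0 lower and 0 higher after adjustment, beside 3.88% and 4.91%. TNPO1, a nuclear import receptor of hnRNP proteins, read 8.02, 8.26 and 8.09 against 7.64, 7.55 and 7.35. The lines did not overlap, the difference was -0.61 ± 0.10 (adjusted p = 0.00401) and it passed without each array, but a second TNPO1 probe differed by -0.17 and did not pass. DYRK1A (-0.31), a kinase of splicing factors, and PPP1CB (-0.29), a catalytic subunit of protein phosphatase 1, were lower with adjusted p of 0.0322 and 0.0360. On leaving out 1 array, DYRK1A passed only without PTTG1+/+ replicate 3 and PPP1CB only without PTTG1-/- replicate 3, with adjusted p of up to 0.121 and 0.133.

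Proteins of the snRNPs with names outside the rule gave 2 lower (7.14%) and 1 higher (3.57%) of 28, with a median of -0.11. Among all genes 7.79% were lower and 9.58% higher. TXNL4A, a small U5 protein, read 5.74, 6.24 and 5.82 against 5.39, 5.31 and 5.01, and 2 of the 3 PTTG1-/- arrays were above background. Its arrays did not overlap, at -0.70 ± 0.14 (adjusted p = 0.0117). SNRNP200, the U5 helicase that unwinds U4 from U6, read 6.502, 6.68 and 6.53 against 7.28, 7.02 and 6.73. It was higher by 0.44 ± 0.13 (adjusted p = 0.0482, and 0.0110 to 0.140 when 1 array was left out, below 0.05 only without PTTG1-/- replicate 3), and its other kept probe differed by 0.18 without passing. LUC7L, a U1-associated protein, was lower by -0.29 (adjusted p = 0.0436), a call lost on leaving out any array but PTTG1-/- replicate 3, at up to 0.134.

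The remaining lists held few calls, and among all genes 7.79% were lower and 9.58% higher. Of 18 exon junction and export genes THOC7 and UPF2 were lower (11.1%), at -0.29 and -0.28. Of 12 LSM genes LSM6, a protein of the U6 ring, was lower (8.33%), at -0.38. Step factors, helicases and proteins of the PRPF19 complex had 1 lower of 42 (2.38%), CWC27 at -0.24, and a median of 0.02. The 19 genes of snRNP assembly had 0 calls in limma and 0 in the methods' t-test, with a median of 0.01. At an unadjusted p under 0.05 limma gave 0 of the 19 lower and 2 higher (10.5%), beside 14.7% and 16.9% of all genes. THOC7, UPF2 and CWC27 were each above 0.05 on leaving out any array but PTTG1-/- replicate 3, with adjusted p of up to 0.101, 0.124 and 0.158, and LSM6 without PTTG1+/+ replicate 1 or 2, at up to 0.0648.

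**Figure D4:**
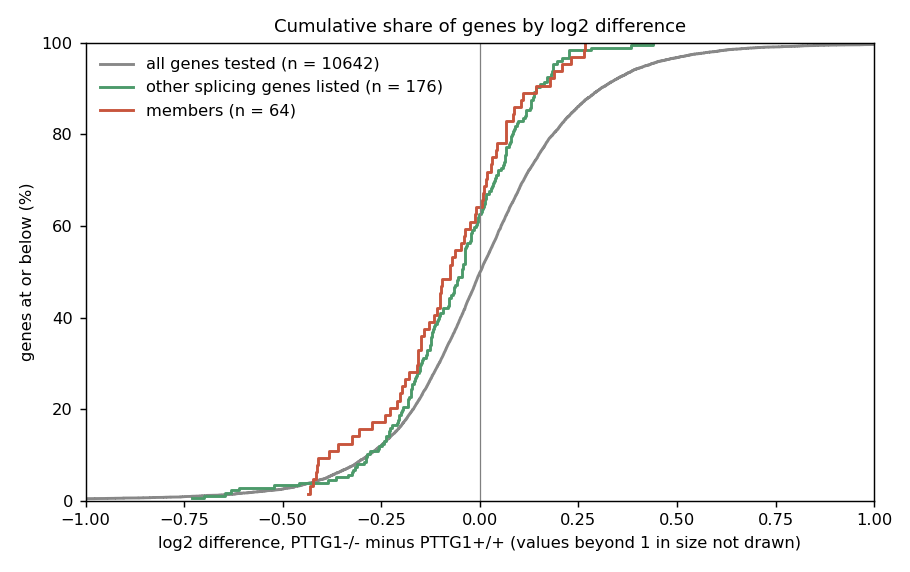
Cumulative share of genes (vertical axis, percent) at or below each log2 difference, PTTG1-/- minus PTTG1+/+, for all 10642 genes tested, the 176 other splicing genes and the 64 members. The curves of the members and of the other splicing genes lie left of the curve of all genes over most of the range, and they reach 100% near 0.27 and 0.44.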

How the data were processed

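RNA of 3 PTTG1+/+ and 3 PTTG1-/- HCT116 samples was hybridised to Illumina arrays. The authors deposited, per array, unnormalized probe intensities and a fraction headed as a detection p, which rises with intensity and was therefore subtracted from 1 to give a detection p. The authors also deposited processed values on a log2 scale. The paper states that raw data followed the standard protocol of the manufacturer before Partek was used. Their normalization is not given in the sources used here. Intensities of 12 lines without a probe name were not used.

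In R 4.3.3 with limma 3.58.1, background was corrected by normexp with the controls' level inferred from detection values (offset 16), followed by quantile normalization and log2. Probes with a detection p under 0.05 on at least 3 arrays were kept (17357, of which 13686 have 1 gene and 3668 are unnamed here), and the kept probe with the highest mean stood for its gene. All 10642 genes were fitted together with lmFit and eBayes, with Benjamini-Hochberg adjustment over all of them, after the procedure had been tested on simulated data. Precision is limited by the number of arrays. Members were picked by the symbols of the platform annotation, with the older SFRS and HNRP names allowed, and are named here by updated symbols. All 71 also matched the rule by updated symbol.

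Named were every member past the threshold (up to 15 each way), the brightest tested member of each family, members with a second probe that passes by itself where the used one does not, members under the filter, up to 4 called genes of each other list, and PTTG1. Members and lists were chosen with earlier results of these data known. Alternatives were other background corrections, normalizations, filters, probe rules, variance models, thresholds, a block on the replicate number, the methods' t-test, and leaving out each array without normalizing anew. The alternatives for the other lists, the member probes and the overlap of arrays were chosen after seeing the data.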

Additional observations from a re-analysis of the deposited data

How the results depend on the processing

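No result past the test changed direction under any alternative. Over 9 lower members, median scaling and no normalization between arrays each gave 1 (HNRNPCL3), beside 4.09% and 3.58% of genes. The methods' t-test gave 2 of 64 beside 3.88% of genes (14 at an unadjusted p under 0.05, 21.9% beside 12.5%). A threshold of 0.01 gave 0 beside 2.96%, and leaving out 1 array gave 0 to 11 beside 4.13% to 9.60%. Over 1 higher member, no background correction and a variance trend gave 3, and the authors' values and a threshold of 0.10 gave 2. Median scaling, no normalization and a threshold of 0.01 gave 0, and leaving out 1 array gave 0 to 3. In these settings 4.01% to 13.7% of genes were higher. The 1849 genes called became 1140 with median scaling, 1044 without normalization, 936 with the t-test, 742 at 0.01, and 1014 to 2183 without 1 array. The members' median moved only between -0.08 and -0.06.

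With the replicate block 7 members were lower and 0 higher, beside 5.65% and 7% of genes, and all genes called came to 1346. PRPF4, HNRNPM and PRPF38B lost their calls, and listed genes became 8 lower and 0 higher. Deviations of same-numbered arrays correlated at -0.07, 0.00 and -0.12, and those of differently numbered arrays at -0.06 to 0.11. With 3 deviations a line, each taken from the line's own mean, these values cannot show whether the numbers pair the arrays.

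Of the listed genes, 15 lower became 7 with median scaling, 6 without normalization, 8 with the t-test and 4 at 0.01. Beside these stand 4.09%, 3.58%, 3.88% and 2.96% of all genes. Leaving out 1 array gave 5 to 21, beside 4.13% to 9.60%. The 1 higher listed gene became 5 without background correction, with a variance trend or at 0.10, and 4 with the authors' values. It became 2 with detection on all 6 arrays, detection p under 0.01, the mean of probes or the t-test. The count was 0 without a filter, with a robust variance or at 0.01, and 0 to 3 without 1 array. In these settings 4.01% to 13.7% of all genes were higher. Of the member probes, 11 lower became 1 with median scaling and 0 without normalization (1 to 14 without 1 array). Their 0 higher became 2 without background correction and 1 with the authors' values (0 to 1 without 1 array). Shares of all kept probes were not counted in these settings. Members whose arrays do not overlap became 11 lower (17.2%) and 4 higher (6.25%) with median scaling, beside 12.1% and 18.7% of genes, and likewise without normalization, beside 10.7% and 18.4%. The causes of these moves were not tested. Signal limits the 7 members that were not kept.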

Other observations

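The rule leaves out 4 pseudogene symbols, copies of HNRNPA1, HNRNPA3 and HNRNPK by name, to which 6 probes are annotated. HNRNPA1P33 read 10.25, 10.28 and 10.43 in PTTG1+/+ cells and 10.01, 9.99 and 10.17 in PTTG1-/- cells, without overlap, a difference of -0.26 that did not pass (adjusted p = 0.0954 over all kept probes in limma). HNRNPA1P10 differed by -0.07 and HNRNPA3P1 by -0.11, and neither passed. The 3 probes of HNRNPKP3 were above background on 0 arrays. HNRNPA1 itself differed by 0.08 on the probe used and by -0.10 on its other kept probe.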
